A study of Mus musculus with 15 samples.

Results

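The proteasome subunits and their close partners were taken as every probe set with a single gene symbol that starts with Psma, Psmb, Psmc, Psmd, Psme, Psmf or Psmg. This rule found 85 of 22690 probe sets, which stand for 48 of the 12393 genes so named on the array. They were measured in gastrocnemius, a fast calf muscle, of 15 individually housed male C57BL/6NHsd mice with 1 MOE430A array per mouse. The young group held 5 mice aged 5 months and the old group 5 mice aged 25 months, both on the normal diet, and the old CR group held 5 mice aged 25 months on lifelong caloric restriction with a caloric intake 26% apart from that of the normal diet. The restricted diet was enriched so that protein, vitamins and minerals were nearly matched, the normal diet was itself below free feeding, and no young mice on CR were part of the design. The questions addressed here are how the mRNA levels of the subunits differ between young and old muscle, and between old muscle with and without CR.

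The proteasome is the main protease of the cytosol and nucleus. Its 20S core is a barrel of alpha and beta rings in which Psmb5, Psmb6 and Psmb7 hold the active sites, and the 19S cap recognises ubiquitin-tagged proteins, unfolds them with a ring of ATPases and feeds them into the barrel. Interferon exchanges the active subunits for Psmb8, Psmb9 and Psmb10, which gives the immunoproteasome of antigen processing, and Psme1 and Psme2 form the activator that often caps it. In muscle the pathway degrades contractile proteins and is best known from atrophy, and the factors Nfe2l1 and Nfe2l2 are known to drive transcription of subunit genes.

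By role, the members comprised 8 genes of the alpha ring (16 probe sets), 7 of the constitutive beta ring (11), 4 of the immunoproteasome (4), 6 ATPases of the 19S cap (11), 11 other 19S subunits (22), 7 assembly chaperones (9) and 3 other activators or inhibitors (10). Another 2 genes, Psmc3ip and Psme3ip1, matched by name only and are no subunits. The only probe set for Psme2 carried the symbols of Psme2 and Psme2b, so it was not a member. Levels are given as the deposited linear intensity, which was scaled array by array, and differences as log2 differences from limma with their standard error (SE). A probe set was called at an adjusted p under 0.05 over all 22626 probe sets that are not controls. Intensities of different probe sets were not set against each other, apart from sums over marker genes, in which bright probe sets weigh more. A gene with several probe sets is represented by the brightest one, and 43 of the 48 genes had a probe set among the 11313 with the highest mean.

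The arrays differed in a sign of RNA or cDNA quality. The log2 difference between the 3' and 5' control probe sets of Gapdh and Actb, larger where fewer copies extend to the 5' end, averaged -0.18 ± 0.14 (SD, n = 5) in young, 0.13 ± 0.09 in old and -0.30 ± 0.08 in old CR mice. By two-sided exact permutation tests over 5 against 5 mice, old differed from young (p = 0.0159) and old CR from old (p = 0.00794, the smallest such a design allows), with adjusted values of 0.0238 for both over 3 comparisons, while old CR and young did not pass (p = 0.127). Young mouse 3 stood apart from its group at 0.06, within the range of old mice (0.05 to 0.27) and outside that of the other young mice (-0.28 to -0.18). The part of this measure in the results below was not tested beyond the fits that carry it as a covariate. The array medians ran from 200.6 to 243.5, and all 13 skeletal muscle markers were bright (lowest value 5866, for Des). These markers had lower means in old than in young mice for 13 of 13 genes (median -0.18, none called) and higher means in old CR than in old mice for 13 of 13 (median 0.31, 1 called). Their summed intensity ran from 324145 to 368482 in young, 256875 to 351809 in old and 284307 to 415264 in old CR mice, and its part in the results below was not tested.

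In the main fit no proteasome gene passed the threshold between old and young mice. None of the 85 probe sets was called between old and young mice, where 60 of all probe sets were called (0.265%), and 15 members (17.6%) had an unadjusted p under 0.05 in limma against 15.5% of all probe sets. There were 48 members with higher and 37 with lower means in old mice, with a median log2 difference of 0.07 against -0.06 over all probe sets. Old and young mice did not overlap in 3 of 85 members (3.53%), close to the 3.61% of all probe sets. The study's own age list was made with RMA values and another model. It holds both Psma7 probe sets as higher and the brightest Psmd7 probe set as lower in old mice. The count of called members changed with young mouse 3. Without it, 7 members were called (adjusted p 0.00441 to 0.0276), where 1067 of all probe sets were called (4.72%). Psme1, Psmd9, Psmd4 and Psmd7 were then lower in old mice, and Psma7, Psmc2 and Psmd11 higher. Without young mouse 3, the young mice (-0.28 to -0.18) and the old mice (0.05 to 0.27) do not overlap in the 3' to 5' difference. That fit largely cannot tell age and this difference apart. With the difference as a covariate and all 15 arrays, no member and no other probe set was called with age by limma.

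CR in old mice was accompanied by higher levels of several 19S cap genes, but no call remained with the 3' to 5' difference as a covariate. Of the 85 members, 8 were called between old CR and old mice (9.41%), against 4.87% of all probe sets. The 7 called higher were Psmc1, Psmc5, Psmd4, Psmd7, Psmd13, Psmb3 and Psmd9, where 2.7% of all probe sets were called higher, and the 1 called lower was Psmg1, where 2.17% were called lower. Among the 11313 brightest probe sets, where 63 members lie, the share called was 12.7% for the members and 7.08% for all. Old CR and old mice did not overlap in 20 members (23.5%, with 11 higher and 9 lower) against 8.89% of all probe sets. Among the 11313 brightest probe sets these shares were 31.7% of the members and 13.9% of all. The members had no common shift, since 46 had higher and 39 lower means in old CR mice, and their median log2 difference was 0.05 against 0.06 over all probe sets. The count was 5 without old mouse 2, old mouse 3 or old CR mouse 3, and 12 without young mouse 3. With each array centred on its median it was 7 (5 higher and 2 lower), while the share of higher calls among all called probe sets went from 55.5% to 37.9%. Both comparisons use the same old mice, so their values stand side by side and are not independent. In bulk muscle, fewer cells of a type and less RNA per cell cannot be told apart.

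**Figure D1:**
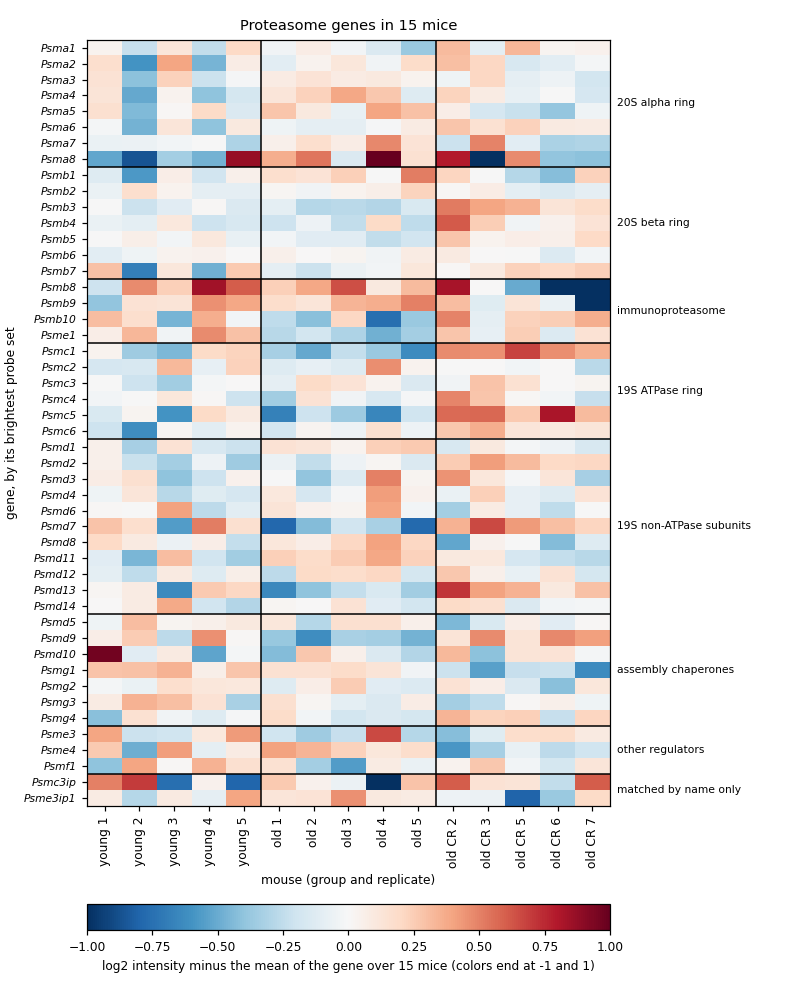
Log2 intensity of each of the 48 genes (rows, by the brightest probe set, grouped by role) in each of the 15 mice (columns, by group and replicate), as the difference from the mean of the gene over all mice, with red above and blue below the mean. Psmc1, Psmc5, Psmd7 and Psmd13 are blue in the old mice and in young mouse 3 and red in the old CR mice, while most alpha ring genes show no such block.

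**Figure D2:**
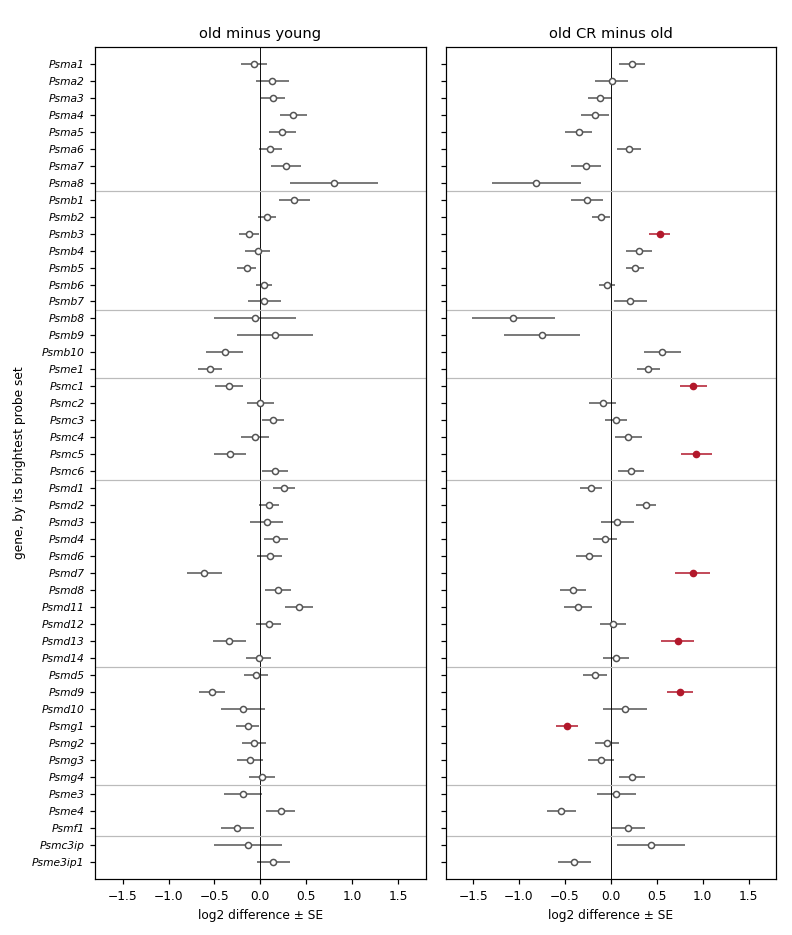
Log2 difference ± SE of each of the 48 genes, by the brightest probe set, for old minus young mice (left) and old CR minus old mice (right), 5 mice per group. Filled red points passed an adjusted p under 0.05, which none did on the left and 7 did on the right, Psmg1 as the one below 0.

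The genes called with CR lie on several chromosomes, and their promoters are shown as those of the members that passed the test, 7 higher and 1 lower. RefSeq entries of 250 bases before to 50 bases after the start site (GRCm38.p6) were found for 40 of the 48 genes, among them 7 of the 8 called genes. The 5 below belong to called genes and hold at least 1 of the motifs searched on both strands, in capitals here. These were the antioxidant response core TGACNNNGC, the interferon response core GAAANNGAA, the interferon-gamma activated site TTCNNNGAA and the CCAAT box.
Psmc1, an ATPase of the 19S cap, chr12:100109952-100110251, plus strand, with a CCAAT box: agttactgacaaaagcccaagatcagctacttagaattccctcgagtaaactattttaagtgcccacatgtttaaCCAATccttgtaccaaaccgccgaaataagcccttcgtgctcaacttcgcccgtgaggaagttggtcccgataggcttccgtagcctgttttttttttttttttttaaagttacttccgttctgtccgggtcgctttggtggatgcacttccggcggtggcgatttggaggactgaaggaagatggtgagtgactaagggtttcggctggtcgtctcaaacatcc
Psmb3, a beta ring subunit, chr11:97703184-97703483, plus strand, with an interferon response core and a pair of CCAAT boxes: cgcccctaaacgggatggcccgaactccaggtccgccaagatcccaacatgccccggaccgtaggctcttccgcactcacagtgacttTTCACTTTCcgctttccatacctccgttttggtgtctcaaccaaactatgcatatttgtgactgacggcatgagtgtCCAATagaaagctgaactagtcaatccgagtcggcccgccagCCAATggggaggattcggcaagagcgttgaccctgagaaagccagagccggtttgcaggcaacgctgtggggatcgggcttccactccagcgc
Psmd4, a ubiquitin receptor, chr3:95042565-95042864, minus strand, with 3 CCAAT boxes and an interferon response core: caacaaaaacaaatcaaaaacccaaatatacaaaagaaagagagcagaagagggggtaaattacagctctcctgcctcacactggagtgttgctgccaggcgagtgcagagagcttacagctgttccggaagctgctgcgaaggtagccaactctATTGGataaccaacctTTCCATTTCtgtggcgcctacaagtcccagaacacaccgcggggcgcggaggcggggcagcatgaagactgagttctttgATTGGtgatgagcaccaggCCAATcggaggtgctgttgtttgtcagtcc
Psmd9, a chaperone of the cap, chr5:123227940-123228239, plus strand, with an antioxidant response core and an interferon response core: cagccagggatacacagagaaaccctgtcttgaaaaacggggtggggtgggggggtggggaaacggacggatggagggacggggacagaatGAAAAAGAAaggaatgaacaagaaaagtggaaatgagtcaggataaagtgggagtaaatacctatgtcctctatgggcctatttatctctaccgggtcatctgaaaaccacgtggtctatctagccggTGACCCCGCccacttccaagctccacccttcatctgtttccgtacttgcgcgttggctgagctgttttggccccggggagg
Psmg1, a chaperone of the core and the gene called lower, chr16:95990911-95991210, minus strand, with an interferon-gamma activated site: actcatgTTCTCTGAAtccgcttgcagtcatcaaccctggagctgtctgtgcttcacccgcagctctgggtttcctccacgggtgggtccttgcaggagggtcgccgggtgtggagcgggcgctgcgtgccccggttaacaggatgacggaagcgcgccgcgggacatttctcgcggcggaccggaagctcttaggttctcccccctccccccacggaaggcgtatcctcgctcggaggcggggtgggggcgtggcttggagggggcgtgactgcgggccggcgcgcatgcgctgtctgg

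No motif searched was found in all called genes. Over the 40 genes with an entry, the antioxidant response core was found in 6 (15.0%, against 12.4% of all 32851 promoters), the interferon response core in 7 (17.5% against 8.56%), the interferon-gamma site in 3 (7.5% against 8.3%) and the CCAAT box in 15 (37.5% against 37.4%). The member shares count genes, with 43 promoters for the 40 genes, while the shares over all count promoters. In the sequences shown no motif overlapped another. These matches describe letters in a window and were not tested against the expression values.

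The alpha ring forms the outer gates of the core, and none of its 8 genes was called. In old against young mice 7 of 8 genes had higher means (median log2 difference 0.19), and in old CR against old mice 5 of 8 had lower means (median -0.14). Psma7, the alpha subunit that Psma8 replaces in testis, was measured by 2 probe sets. The dimmer one (1423567_a_at) read 1418, 1109, 2270, 1443 and 1317 in young mice 1 to 5, 2243, 2619, 2288, 2743 and 2247 in old mice 1 to 5, and 1971, 2170, 1753, 1759 and 1327 in old CR mice 2, 3, 5, 6 and 7. All old mice lay above the young mice other than number 3, and young mouse 3 lay among the old mice. The log2 difference was 0.72 (SE 0.18, adjusted p = 0.0949) in old against young mice, 0.88 (adjusted p = 0.00593) without young mouse 3, and -0.45 (adjusted p = 0.17) in old CR against old mice. The brighter one (1423568_at) read 1807, 1816, 1855, 1889 and 1527 in the young mice, 1965, 2124, 1994, 2641 and 2082 in the old mice and 1633, 2671, 1760, 1518 and 1535 in the old CR mice. The old and young mice did not overlap here, while old CR mouse 3 was slightly above the highest old mouse. Its log2 differences were 0.28 (SE 0.16, adjusted p = 0.423) with age and -0.27 (adjusted p = 0.341) with CR.

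At the extremes of the alpha ring, Psma8, the testis form, was dim, with 5.95 to 72.2 over the 15 mice. Its differences of 0.80 with age and -0.81 with CR had an SE of 0.48 and adjusted p of 0.452 and 0.353. Psma1 had the lowest age difference (-0.07, adjusted p = 0.838) and the highest CR difference (0.23, adjusted p = 0.359). Young mouse 2 was the lowest of its group in 17 of the 48 genes. In this ring these were Psma2, Psma3, Psma4, Psma5, Psma6 and Psma8, so this mouse lowered the young means of most of the ring.

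Of the 7 constitutive beta ring genes, Psmb3 was called. Psmb3 is a beta subunit without an active site. Its brighter probe set (1460198_a_at) read 2321, 2006, 2155, 2349 and 2108 in the young mice, 2184, 1912, 1940, 1909 and 2096 in the old mice and 3352, 3075, 2962, 2546 and 2646 in the old CR mice. Every old CR mouse was above every old and every young mouse, and young mouse 3 lay in the middle of its group. The old CR mean of 2916 ± 327 stood against 2008 ± 125 in old mice (SD, n = 5), a log2 difference of 0.53 (SE 0.11, adjusted p = 0.0176), and the call ended when each array was centred on its median. The other probe set of Psmb3 (1417052_at) gave 0.45 (adjusted p = 0.0764). With age the differences were -0.12 and -0.26, neither called.

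None of the active-site subunits of the constitutive core was called. Psmb5, which carries the chymotrypsin-like activity, read 3620, 3773, 3562, 3910 and 3441 in the young mice, 3550, 3357, 3357, 3051 and 3169 in the old mice and 4397, 3722, 3791, 3760 and 4154 in the old CR mice. All old CR mice were above all old mice, by 0.26 (SE 0.10), but the adjusted p was 0.131, and the age difference was -0.15 (adjusted p = 0.479). Psmb6 gave 0.04 with age and -0.04 with CR (SE 0.09). Psmb7 gave 0.04 and 0.21 (SE 0.18), and its young mice alone ran from 7708 to 15135. Psmb1 had the highest age difference of this ring (0.37, adjusted p = 0.315) and the lowest CR difference (-0.26, adjusted p = 0.386). The medians of the ring were 0.04 with age and 0.21 with CR.

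The immunoproteasome genes did not move as a set, and none of the 4 was called in any of the 3 comparisons. Psme1, the alpha chain of the 11S activator, gave the smallest adjusted p of any member with age. It read 1258, 1512, 1172, 1665 and 1470 in the young mice, 991, 1054, 969, 857 and 947 in the old mice and 1449, 1133, 1424, 1092 and 1323 in the old CR mice. All old mice were below all young and all old CR mice. The log2 difference was -0.55 (SE 0.13, adjusted p = 0.0812) with age, which became -0.61 (adjusted p = 0.018) without young mouse 3, and 0.41 (SE 0.13, adjusted p = 0.0857) with CR. Among the 11313 brightest probe sets alone, Psme1 passed in both comparisons.

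Psmb10, the inducible subunit with trypsin-like activity, also had its lowest mean in old mice. It read 538, 487, 314, 559 and 427 in the young mice, 365, 325, 500, 258 and 336 in the old mice and 612, 407, 508, 515 and 558 in the old CR mice. Old mice 1, 2, 3 and 5 lay within the range of the young mice, and old mouse 3 also within that of the old CR mice. Its log2 differences were -0.39 with age (SE 0.20, adjusted p = 0.363) and 0.56 with CR (SE 0.20, adjusted p = 0.109), and the latter was -0.01 with the 3' to 5' difference as a covariate.

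Psmb8 and Psmb9, the inducible active subunits whose genes neighbour each other in the MHC region of chromosome 17, differed in the other direction and with a wide spread among old CR mice. Psmb8 read 180, 289, 245, 373 and 316 in the young mice, 245, 272, 325, 222 and 259 in the old mice and 368, 209, 147, 52.5 and 53.1 in the old CR mice. Old CR mouse 2 was above every old mouse, while mice 6 and 7 were far below all others. The log2 difference was -1.06 (SE 0.45, adjusted p = 0.185) with CR and -0.06 (adjusted p = 0.97) with age. Psmb9 read 154, 224, 221, 278 and 265 in the young mice, 229, 220, 257, 261 and 287 in the old mice and 251, 186, 222, 193 and 36.3 in the old CR mice. Old CR mouse 7 was far below the rest, and the other 4 lay within or just below the range of old mice. Its log2 differences were -0.75 (SE 0.41, adjusted p = 0.314) with CR and 0.16 (adjusted p = 0.897) with age.

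Leukocytes also express these subunits, so markers of such cells are given beside them. Of 17 leukocyte markers, 12 had lower and 5 higher means in old CR than in old mice (median -0.28), and 1 was called (5.88%, against 4.87% of all probe sets), and their summed intensity ran from 6396 to 9247 in old CR, 10094 to 15407 in old and 7483 to 15513 in young mice. None was at 0, and the lowest single value was 25.0, for Coro1a. The brightest markers, Csf1r, Ighm, Lyz2 and Cd74, weigh most in the summed intensity. Of 21 interferon response genes, 16 had lower means with CR (median -0.14), and the one called was Stat2, a transducer of interferon signals, which was higher (0.82, adjusted p = 0.0471). The part of leukocytes in the Psmb8 and Psmb9 values was not tested.

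**Figure D3:**
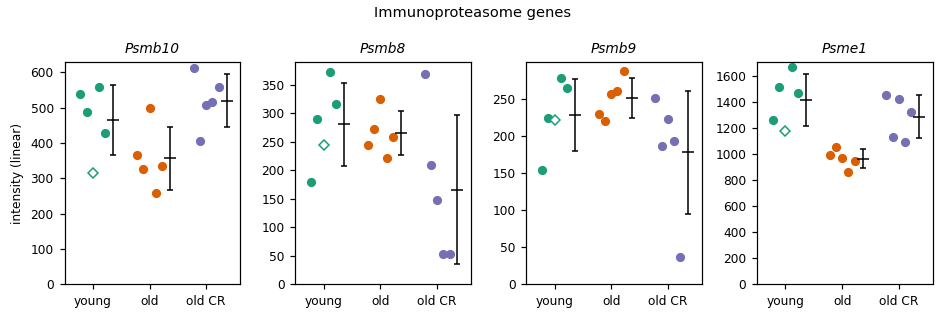
Linear intensity (vertical axis, from 0) of the 4 immunoproteasome genes in each mouse by group. Dots are mice, the open diamond is young mouse 3, and the bars to the right of each group are the mean ± SD (n = 5). Psme1 is lowest in the old mice, and Psmb8 spreads from 52.5 to 368 among the old CR mice.

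The 19S ATPases, which unfold substrates and open the gate of the core, held the 2 calls with the smallest p. Psmc1 (1416005_at) read 1078, 823, 769, 1200 and 1228 in the young mice, 837, 739, 893, 812 and 681 in the old mice and 1461, 1444, 1679, 1451 and 1344 in the old CR mice. Every old CR mouse was above every mouse of both other groups. Old CR mice averaged 1476 ± 123 and old mice 793 ± 83.2 (SD, n = 5), a 1.87-fold level and a log2 difference of 0.90 (SE 0.15, adjusted p = 0.0086), while the age difference was -0.34 (adjusted p = 0.286). The dimmer probe set of Psmc1 gave 0.48 (adjusted p = 0.318) with CR, and there old CR and old mice overlapped. Psmc5 (1415740_at) read 1596, 1803, 1175, 2025 and 1891 in the young mice, 1111, 1540, 1381, 1128 and 1541 in the old mice and 2628, 2643, 2131, 3115 and 2204 in the old CR mice. Here too no old CR mouse overlapped either group, and old CR mouse 6 was the highest. The log2 difference was 0.93 (SE 0.17, adjusted p = 0.0131) with CR and -0.33 with age. Both calls held without each of the 15 arrays in turn and ended with the 3' to 5' covariate, where the differences were 0.58 and 0.40.

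The other 4 ATPase genes were not called. Psmc2 had age and CR differences of 0.00 and -0.09 at the brighter probe set, and 0.40 (adjusted p = 0.137) and -0.37 (adjusted p = 0.0964) at the other, whose name marks probes that may match further transcripts. Psmc6, whose brightest probe set gave the highest age difference of the ring (0.16), missed the threshold with CR at another probe set (1417770_s_at). That one read 912, 580, 939, 749 and 684 in the young mice, 1065, 1006, 864, 1143 and 1072 in the old mice and 753, 680, 788, 694 and 659 in the old CR mice. All old CR mice were below all old mice, by -0.52 (SE 0.14, adjusted p = 0.0509), whereas the brightest probe set gave 0.22 (adjusted p = 0.379). The CR median of the 6 genes was 0.20, and 5 of the 6 had higher means.

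Among the 11 other 19S subunits, 2 were called higher with CR at the brightest probe set, Psmd7 and Psmd13, and Psmd4 at another of its probe sets. Psmd7, a partner of the deubiquitinase in the lid, read 1371, 1267, 765, 1605 and 1260 in the young mice, 656, 833, 986, 903 and 657 in the old mice and 1434, 1781, 1517, 1390 and 1308 in the old CR mice at its brightest probe set. All old CR mice were above all old mice, old CR mouse 3 was also above every young mouse, and young mouse 3 lay with the old mice. The log2 difference was 0.89 (SE 0.19, adjusted p = 0.0214) with CR and -0.61 (SE 0.19, adjusted p = 0.143) with age, the latter -0.78 (adjusted p = 0.0125) without young mouse 3. The dimmer probe sets of Psmd7 gave 0.39 (adjusted p = 0.36) and -0.06 (adjusted p = 0.929) with CR. Psmd13, a lid subunit, read 876, 914, 554, 1037 and 994 in the young mice, 551, 653, 733, 778 and 679 in the old mice and 1413, 1140, 1097, 921 and 1055 in the old CR mice. Young mouse 3 was again lowest of its group and the old CR mice were all above the old mice. The log2 difference with CR was 0.73 (SE 0.18, adjusted p = 0.0351), which passed in 7 of the 15 fits that leave out 1 array and ended with median centring. It did not pass without old mouse 1, 2, 3 or 5 or old CR mouse 2, 3, 5 or 7 (adjusted p up to 0.0717). The other probe set of Psmd13 gave 0.42 (adjusted p = 0.15).

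Psmd4, which binds ubiquitin chains, was called at 1 of its 3 probe sets (1425859_a_at). This one read 1388, 1187, 482, 1610 and 1416 in the young mice, 842, 664, 519, 813 and 496 in the old mice and 1696, 1882, 1463, 1413 and 1465 in the old CR mice. Old CR mice were all above old mice and young mice 4 and 5 lay within the range of the old CR mice, while young mouse 3 was the lowest of all 15. The log2 difference with CR was 1.27 (SE 0.28, adjusted p = 0.0256), the largest among the called members, and it passed in 11 of 15 fits without 1 array, all but those without old mouse 2, 3 or 5 or old CR mouse 3 (adjusted p up to 0.0616). With age it was -0.79 (adjusted p = 0.199), and -1.10 (adjusted p = 0.00441) without young mouse 3. The brightest Psmd4 probe set (1418874_a_at) read 3211, 3591, 2726, 3046 and 2938 in the young mice, 3548, 2945, 3275, 4427 and 3405 in the old mice and 3162, 3901, 3116, 3028 and 3630 in the old CR mice. The groups overlapped throughout, and the differences were 0.17 with age and -0.06 with CR. The 2 probe sets of 1 gene thus disagreed, and which transcripts each reads was not determined here.

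Further subunits of this part of the cap stood out without a call. Psmd8, a lid subunit, had the lowest CR difference (-0.41, adjusted p = 0.101) with no overlap between old and old CR mice. Psmd11, a lid subunit known to support assembly of the full proteasome, had the highest age difference (0.42, adjusted p = 0.189) and a CR difference of -0.36 (adjusted p = 0.174). Its 6 probe sets had both signs, from -0.24 to 0.57 with age and from -0.36 to 0.56 with CR, and none was called. Psmd2, a scaffold of the base like Psmd1, read 3925, 3239, 2992, 3654 and 2963 in the young mice, 3635, 3197, 3653, 3848 and 3426 in the old mice and 4526, 5052, 4727, 4359 and 4362 in the old CR mice. Every old CR mouse was above every mouse of the other groups, but with CR the log2 difference of 0.38 (SE 0.11) had an adjusted p of 0.07. The medians of the 11 genes were 0.09 with age and 0.02 with CR.

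**Figure D4:**
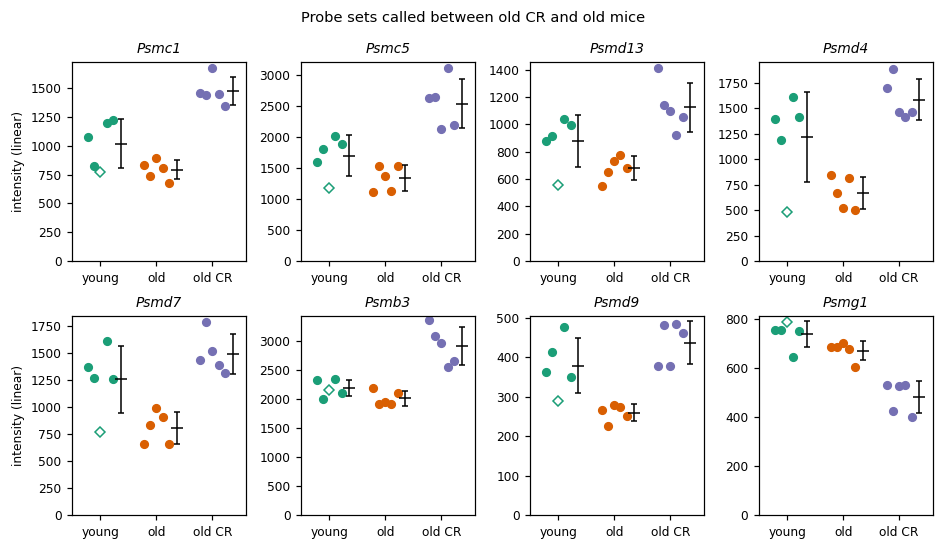
Linear intensity (vertical axes, from 0) in each mouse of the 8 probe sets called between old CR and old mice. Dots are mice, the open diamond is young mouse 3, and bars are the mean ± SD (n = 5). Old and old CR mice do not overlap in any panel, and young mouse 3 is the lowest young mouse in 6 of the 7 genes that were higher with CR.

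Young mouse 3 was the lowest of its group in 6 of the 7 members called higher with CR, all but Psmb3. The same held for 395 of all 612 probe sets called higher (64.5%), 27.5% of all probe sets and 21.2% of the members. With the 3' to 5' difference as a covariate, no member and no other probe set was called in old CR against old mice by limma. Of the 85 members, 4 had an unadjusted p under 0.05 in that fit. The share over all probe sets was not counted, so the 4 say nothing particular about the members. The 8 called members kept their sign, at 0.58 for Psmc1 and Psmb3, 0.52 for Psmd9, 0.40 for Psmc5 and Psmd4, 0.26 for Psmd7, 0.02 for Psmd13 and -0.25 for Psmg1, with standard errors 1.75 to 2.14 times as large. Since every old CR mouse lay below every old mouse in the covariate, its effect and that of CR largely cannot be told apart.

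Of the 7 assembly chaperones, which help build the complex and leave it, one rose and one fell with CR. Psmd9, a chaperone of the base, read 363, 414, 290, 476 and 350 in the young mice, 267, 226, 278, 274 and 250 in the old mice and 379, 483, 379, 484 and 461 in the old CR mice at its brighter probe set. All old mice were below all young and all old CR mice. The log2 difference was 0.75 (SE 0.14, adjusted p = 0.0143) with CR, called without each array in turn but not with the 3' to 5' covariate, and -0.53 (SE 0.14, adjusted p = 0.106) with age. The dimmer probe set of Psmd9 gave -0.11 with CR and 0.01 with age. Psmg1, which starts the alpha ring together with Psmg2, read 754, 755, 785, 644 and 749 in the young mice, 687, 687, 700, 675 and 603 in the old mice and 531, 425, 526, 532 and 399 in the old CR mice. All old CR mice were below all mice of both other groups. The level fell by 0.48 on the log2 scale with CR (SE 0.12, adjusted p = 0.0338), a call that held in 9 of 15 fits without 1 array. It ended without old mouse 1, 2, 3 or 4 or old CR mouse 3 or 7 (adjusted p up to 0.0741), and also when the young mice were left out of the model. Against young mice the difference was -0.62 (adjusted p = 0.0632).

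The remaining chaperones were not called. Psmg4, which acts on the alpha ring with Psmg3, had the highest age difference of the role (0.02, adjusted p = 0.972), and Psmg2, the partner of Psmg1, gave -0.04 with CR at the brighter probe set and 0.40 (adjusted p = 0.181) at the other. With age, 6 of the 7 genes had lower means (median -0.11).

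The other regulators were not called. All 3 probe sets of Psme4, the PA200 activator that caps the core without ubiquitin, were lower with CR, by -0.54, -0.60 and -0.49, with adjusted p of 0.0707, 0.0726 and 0.153. The brightest read 4313, 2554, 4798, 3374 and 3791 in the young mice, 4735, 4546, 4211, 3874 and 4065 in the old mice and 2402, 2854, 3417, 2991 and 3132 in the old CR mice. No old CR mouse overlapped the old mice at any of the 3 probe sets, and the young mice spread across both groups. Psme3, the nuclear activator, had differences of -0.19 with age and 0.06 with CR. Psmf1, an inhibitor of the core, had differences of -0.25 (adjusted p = 0.531) and 0.19 (adjusted p = 0.569). Of the genes matched by name only, Psmc3ip, a meiotic recombination factor, gave -0.13 with age and 0.44 with CR (adjusted p = 0.53), and Psme3ip1, which binds Psme3, gave 0.14 and -0.40 (adjusted p = 0.219).

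Probe sets of the same gene often disagreed. Of the 21 genes with several probe sets, 8 had both signs with age and 13 with CR, and the median distance between the lowest and highest log2 difference of a gene was 0.42 and 0.49. The widest distance with CR was 1.61 at Psme3, whose dimmest probe set gave 1.53 (mean 23.6 in old and 66.8 in old CR mice, adjusted p = 0.096) against -0.08 and 0.06 at the others. The next was 1.33 at Psmd4, between 2 probe sets that are both among the 11313 brightest. Each of the 6 called genes with a further probe set had a single called one. Within groups, the median log2 SD was 0.25 for the members and 0.37 for all probe sets.

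**Figure D5:**
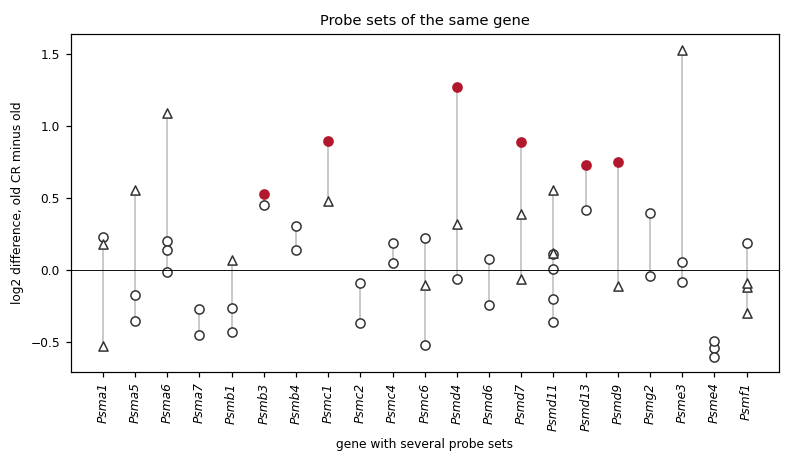
Log2 difference between old CR and old mice for every probe set (points) of the 21 genes with several, joined by a line per gene. Filled red points were called, circles are among the 11313 brightest probe sets, and triangles are dimmer. The called probe set of Psmd4 lies at 1.27 and the brightest one of that gene at -0.06, while the 3 probe sets of Psme4 lie within 0.11.

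Against young mice, old CR mice had no called member (20 of all probe sets were called, 0.0884%), and 12 members (14.1%) had an unadjusted p under 0.05 in limma against 12.1% of all probe sets. Old CR and young mice did not overlap in 6 members (7.06%, against 3.57% of all probe sets). Among the 11313 brightest probe sets these shares were 9.52% of the members and 5.62% of all. Of the 6, Psmc1, Psmc5, Psmb3, Psmd2 and the brightest probe set of Psmc6 were higher in old CR mice. Their log2 differences were 0.56, 0.59, 0.41, 0.46 and 0.37, and Psmg1 was lower. For the called probe sets of Psmd7, Psmd9 and Psmd4, old CR and young mice overlapped, and the highest old CR mouse was above the highest young mouse.

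Genes around the proteasome gave no call with age. With CR, by the brightest probe set, 8.33% of the partners and regulators and 25.0% of the supply and shuttle genes were called. For ubiquitin conjugation and class I antigen processing the shares were 3.7% and 18.2%, against 4.87% of all probe sets. None of these calls remained with the 3' to 5' difference as a covariate. Of 12 partners and regulators, Nfe2l2, the antioxidant factor that drives subunit genes, was called lower with CR (-0.60, SE 0.14, adjusted p = 0.0297), at 1000 ± 148 against 1513 ± 182 in old mice (SD, n = 5), and its age difference was 0.31 (adjusted p = 0.306). Usp14, the deubiquitinase bound to the cap, had differences of -0.42 with age (adjusted p = 0.229) and 0.47 with CR (adjusted p = 0.106). Nfe2l1 gave 0.10 and -0.19, neither called. Of 8 genes that supply or shuttle ubiquitinated proteins, Ubqln2 and Ubqln1, both shuttle factors, were called lower with CR (-0.59, adjusted p = 0.0291, and -0.51, adjusted p = 0.0322), and Ubqln2 had an age difference of 0.64 (adjusted p = 0.065). Of 27 ubiquitin conjugation genes, the ligase Trim32 was called lower with CR (-0.54, adjusted p = 0.029) and the ligase Ube3a was not (-0.70, adjusted p = 0.058). Of 11 class I antigen processing genes, the chaperone Canx was higher (0.67, adjusted p = 0.0347) and the peptide transporter Tap1 lower (-0.61, adjusted p = 0.0412) with CR.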

How the data were processed

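RNA of 15 gastrocnemius muscles was hybridised to MOE430A arrays, 1 per mouse, with groups taken from the labels. The authors deposited 1 linear intensity per probe set and array, and the trimmed mean of each array (2% at each end) is 500.0, so arrays were scaled one by one. RMA and MAS5 are named in the submitters' processing notes, and versions are not given in the sources used here. The deposited intensities are not the RMA values of the study's own statistics. Oligo-dT priming copies RNA from its 3' end, so shortened RNA can lower probe sets far from it. Values were converted to log2 with no further normalization. The 22626 probe sets other than 64 controls entered one limma model of the 3 groups (limma 3.58.1, R 4.3.3, moderated by eBayes with no variance trend and 2.17 prior degrees of freedom). Each comparison's p-values were corrected over all probe sets (Benjamini-Hochberg), with calls at an adjusted p under 0.05.

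On simulated data with 200 changed probe sets of 22626, the old against young fit recovered 48 of 100 changed 2-fold and 71 of 100 changed 4-fold. Exact permutation tests of single values were run in Python 3.11.15 (NumPy 2.4.6, SciPy 1.17.1, pandas 2.3.3, Matplotlib 3.10.9). Gene symbols come from the platform annotation and promoter sequences from RefSeq (GRCm38.p6). The members, role lists, marker lists and 5 lists of related genes were chosen with earlier results of these data known. Named were the immunoproteasome genes, every called member, the genes with the highest and lowest difference of each role, the probe sets of Psma7 and Psmc2, and up to 3 genes of each related list with the smallest p per comparison. The study's age list holds Psma7 and a probe set named 26S subunit 7. The latter is annotated to Psmd7, and no Psmc2 probe set is on that list. Nfe2l1, Psmd2, Psme3, Psmg2 and further probe sets were named after their values were seen. The alternatives were the 11313 brightest probe sets, median centring, quantile normalization, a pseudocount of 32, a model of the compared groups alone, robust eBayes with a variance trend, weights per array, a replicate block, the 3' to 5' difference as a covariate, an adjusted p under 0.10, and leaving out each array. The number of arrays limits the precision.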

Additional observations from a re-analysis of the deposited data

Results flagged for a closer look

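Among the 81 groups of 5 mice formed by the 27 named member probe sets, 13 held a mouse whose gap to the nearest other mouse was over 0.71 of the range of the group. That limit is set for about 1 in 20 groups of independent, normally distributed values. The groups here share the same mice, and most of the probe sets were named for their differences or calls. Whether 13 is more than chance gives was therefore not tested. The values below are linear intensities. Each gap is a share of the range, with both taken on the log2 scale. No cause was tested.

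Young mouse 3 was lowest for Psmd13 (554 against 876 to 1037, gap 0.73) and for the called probe set of Psmd4 (482 against 1187 to 1610, gap 0.747), the mouse whose 3' to 5' difference lay with the old mice. Old mouse 4 was highest for the brighter probe sets of Psmc2 (4478 against 2966 to 3324, gap 0.723) and Psma7 (2641 against 1965 to 2124, gap 0.738), and lowest for Psmc3ip (71.7 against 192 to 243, gap 0.808). For the same Psma7 probe set, young mouse 5 was lowest (1527 against 1807 to 1889, gap 0.793) and old CR mouse 3 highest (2671 against 1518 to 1760, gap 0.738). Old CR mouse 7 was lowest for Psmc2 (2697 against 3185 to 3260, gap 0.877) and for Psmb9 (36.3 against 186 to 251, gap 0.845). For Psmg1, young mouse 4 was lowest (644 against 749 to 785, gap 0.763), as was old mouse 5 (603 against 675 to 700, gap 0.758). Old CR mouse 6 was lowest for Psmg4 (398 against 541 to 588, gap 0.788), and old mouse 3 was highest for Psme3ip1 (921 against 712 to 739, gap 0.856).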

How the results depend on the processing

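In old against young mice, where no member was called, 3 of 63 were called among the 11313 brightest probe sets (Psme1, Psmd9 and Psma7; 5.06% of all those probe sets), 2 with a variance trend and robust eBayes (1.85% of all), 6 with array weights (3.4%) and 2 at an adjusted p under 0.10 (1.68%). Leaving out 1 array gave 0 to 7, the 7 without young mouse 3. In old CR against old mice the count of 8 (4.87% of all) was 17 of 63 among the brightest probe sets (15.7% of those), 16 with the trend (7.36%), 16 at an adjusted p under 0.10 (10.1%), and 0 both with the replicate block and with the 3' to 5' covariate, and 5 to 12 when 1 array was left out. In old CR against young mice the count of 0 was 2 among the brightest probe sets (1.8% of those), 1 with the pseudocount (0.287%), 2 with the trend (0.667%), 1 at an adjusted p under 0.10 (0.438%), and 0 in every fit without 1 array. Psmc1, Psmc5, Psmd7, Psmb3 and Psmd9 were called with CR in all 15 fits without 1 array.

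With the replicate block, which needs numbers shared between groups, 4 of all probe sets were called in old CR against old mice. In that limma fit 16 of the 85 members had an unadjusted p under 0.05, and the share over all probe sets was not counted. Deviations of arrays with the same number correlated by -0.119 to 0.0729. No values for arrays with different numbers are given beside these, so whether such samples share more than a number was not tested.

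With the 3' to 5' covariate, 5 differences changed sign, none of them called: in old CR against old mice Psmd11 0.16, Psma7 0.26 (1423567_a_at), Psmb10 -0.01 and Calr 0.09, and in old against young mice Ngly1 -0.16. Changes of role medians were flagged in 8 cases, and not all of these exceeded the median log2 SD of the members within groups (0.25). When a gene was averaged over its probe sets, the alpha ring was at 0.35 and the other regulators at 0.03 with age, and the chaperones at 0.15 with CR. With median centring, the constitutive beta ring was at 0.13 with age and 0.12 with CR. Among the brightest probe sets, the immunoproteasome was at 0.49 in old CR against old and 0.02 in old CR against young mice, and the genes matched by name only at -0.40 with CR. Of the 4 immunoproteasome genes 2 are among the brightest, and of the 2 genes matched by name only 1 is, so these medians rest on fewer genes. Under median centring, the median over all probe sets went from -0.06 to 0.03 with age and from 0.06 to -0.03 with CR. For the counts of calls, fewer probe sets enter the adjustment among the brightest. The cause of the other changes was not tested.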
